A study of Mus musculus with 10 samples.

Results

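The Nkx, Lhx, Irx, Pax, Gata, Msx, Gbx and Barhl genes and the sine oculis homologues (such as Six2, Six4 and Six5) encode transcription factors that specify organs and cell types across the mouse embryo, and 51 genes of these 9 families were followed among the 20045 gene symbols of a retinal histone map. Members were chosen by name alone, as symbols that begin with 1 of the family names and a digit. Pax6, Six3, Six6, Lhx1, Lhx2 and names ending in os were left out, and where a symbol had several transcription start sites (TSS) the entry whose 8 values summed highest was kept. Six6os1 met the rule by its letters, although its name does not make it a factor, and was counted as a member without a class. The 50 factors were divided by their known roles into 7 regulators of retinal neuron types (Lhx3, Lhx4, Lhx9, Irx5, Irx6, Barhl2 and Gbx2), 8 factors described elsewhere in the eye or inner retina (Irx1 to Irx4, Pax2, Pax4, Msx1 and Msx2) and 35 non-retinal factors, which act mainly in the neural tube, forebrain, heart, gut, skeleton, muscle, kidney or blood.

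The study measured H3K4me2 and H3K27me3 by ChIP-Seq, which sequences the DNA bound to a modified histone, in mouse retinas before birth at E17.5 (written E17 in the sample labels) and after birth at PN1, PN7 and PN15, where E and PN count embryonic and postnatal days. Series of 4 values are given in this order of stages. There was 1 library for each mark and stage, made from at least 20 pooled retinas, so no replicate error and no p-value could be given. The study's methods name C57BL/6j mice beside rd1/rd1 mutants kept as a control without rods, while the sample labels give Pde6b (rd1/rd1) as the strain of every library. The genotype of the 8 libraries therefore rests on the study's description of them as wild type, and the rd1/rd1 and anti-GFP libraries were not analysed here. No other treatment or allele is named for these groups.

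H3K4me2 is laid down around active and poised promoters. H3K27me3 is written by the Polycomb repressive complex and is typical of silent developmental regulators, and a promoter that carries both marks is called bivalent. Polycomb targets in many tissues include homeobox, Pax and Gata genes of lineages foreign to the tissue, and neuronal regulators that are used in a minority of its cells.

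Values are normalized occupancies within 2.5 kb of a TSS on either side, a window of the same length for every gene. The olfactory and vomeronasal receptor genes, which the retina does not use, gave the background, and a mark was called present above the 99th percentile of their entries in that library. From E17.5 to PN15 this limit was 6, 9, 1 and 9.02 for H3K4me2, and 32, 39, 39 and 39.04 for H3K27me3. The PN7 library of H3K4me2 stood apart, with 20.1% of symbols at 0 against 0.419% to 2.78% in the other 3 libraries of that mark. All 6 rod markers examined, among them Nrl and Crx, carried H3K4me2 above background in every library, and their summed value was 96, 110, 147 and 587. Markers of other tissues were also above the H3K4me2 background, namely 3, 2, 3 and 2 of 5 for the pigment epithelium, 3, 1, 2 and 0 of 4 for lens, 2, 2, 3 and 2 of 3 for skeletal muscle and 1 of 2 for liver in every library, but 0 of 3 for red blood cells. Their part in the results was not tested. The retina was profiled whole, so fewer cells with a mark and less mark per cell cannot be told apart. The marks were also read in separate libraries, so both marks at a gene may lie in different cells. A bivalent promoter cannot be told apart from such a mixture.

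The promoters of 4 members are shown because they span the patterns described here: Lhx4 and Barhl2, retinal factors that held both marks, Pax5, a B cell and hindbrain factor with a large loss of H3K4me2, and Gata1, the erythroid factor with neither mark. Each is the 250 bases before the RefSeq gene start, taken from RefSeq on GRCm38.p6 and written on the strand of the gene, with capitals at each CG, the dinucleotide that is dense in CpG islands. By exact match they lie on the minus strand of mm9, Lhx4 at chr1:157589158-157589407, Barhl2 at chr5:106887186-106887435, Pax5 at chr4:44723567-44723816 and Gata1 at chrX:7545037-7545286. GENCODE starts Lhx4 at the same place but starts Barhl2, Pax5 and Gata1 further upstream, so that those 3 stretches lie within the gene in that annotation.
Lhx4: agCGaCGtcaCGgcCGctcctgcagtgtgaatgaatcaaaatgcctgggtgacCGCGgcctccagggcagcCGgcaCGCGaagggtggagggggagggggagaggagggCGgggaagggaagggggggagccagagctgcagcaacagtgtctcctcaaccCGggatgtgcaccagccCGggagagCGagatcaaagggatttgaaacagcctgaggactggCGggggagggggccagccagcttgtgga
Barhl2: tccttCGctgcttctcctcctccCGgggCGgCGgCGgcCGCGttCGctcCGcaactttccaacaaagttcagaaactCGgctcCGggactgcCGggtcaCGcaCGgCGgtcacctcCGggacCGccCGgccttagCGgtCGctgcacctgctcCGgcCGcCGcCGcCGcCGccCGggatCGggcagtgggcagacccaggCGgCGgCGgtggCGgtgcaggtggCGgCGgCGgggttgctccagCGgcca
Pax5: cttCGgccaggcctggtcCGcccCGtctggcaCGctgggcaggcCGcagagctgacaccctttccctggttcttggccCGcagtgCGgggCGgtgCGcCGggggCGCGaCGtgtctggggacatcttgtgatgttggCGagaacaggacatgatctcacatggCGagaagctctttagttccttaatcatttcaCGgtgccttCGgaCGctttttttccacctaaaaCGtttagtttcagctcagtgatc
Gata1: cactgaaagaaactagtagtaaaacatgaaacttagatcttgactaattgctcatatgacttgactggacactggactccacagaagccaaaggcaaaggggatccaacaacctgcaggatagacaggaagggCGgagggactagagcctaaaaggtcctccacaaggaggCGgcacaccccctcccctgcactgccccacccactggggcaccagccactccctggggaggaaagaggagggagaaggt
The search for CG, which reads the same on both strands, found 14 in Lhx4, 36 in Barhl2, 19 in Pax5 and 2 in Gata1. Among 13965 symbols with a promoter in the table the median was 11, and 54.3% held at least 10, while 93.4% held at least 1. Promoters were matched for 37 of 51 members, under 80% of them, so a comparison of the whole set with other genes was void. The start sites used by the authors are not given with their values, so the windows and these promoters were not matched to each other. Members without a match included Gata4, Gata6, Gbx1, Irx1, Irx5, Irx6, Lhx5, Nkx2-6, Nkx6-3, Pax3, Pax4 and Six6os1.

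H3K27me3 was the prominent mark of these genes at every stage. The median of the 51 members was 472, 633, 464 and 214 over the 4 stages, where the median of all symbols was 11, 10, 9 and 10. In each library the members' median stood near the 99th percentile of all symbols. H3K27me3 was above background in all 4 libraries at 47 members (11.3% of all symbols). The number was 49 in the PN1 library (16.3%), 48 in that of PN7 (16.2%) and 49 in that of PN15 (14.3%). Members under the limit were Gata1 and Six6os1 at all stages, Nkx6-3 at E17.5 and Six5 at E17.5 and PN7. When symbols were ranked by the sum of their 4 H3K27me3 values, 30 members were among the 200 highest (0.998% of all symbols), made up of 24 non-retinal factors, 5 other eye factors and 1 retinal factor, Gbx2.

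**Figure D1:**
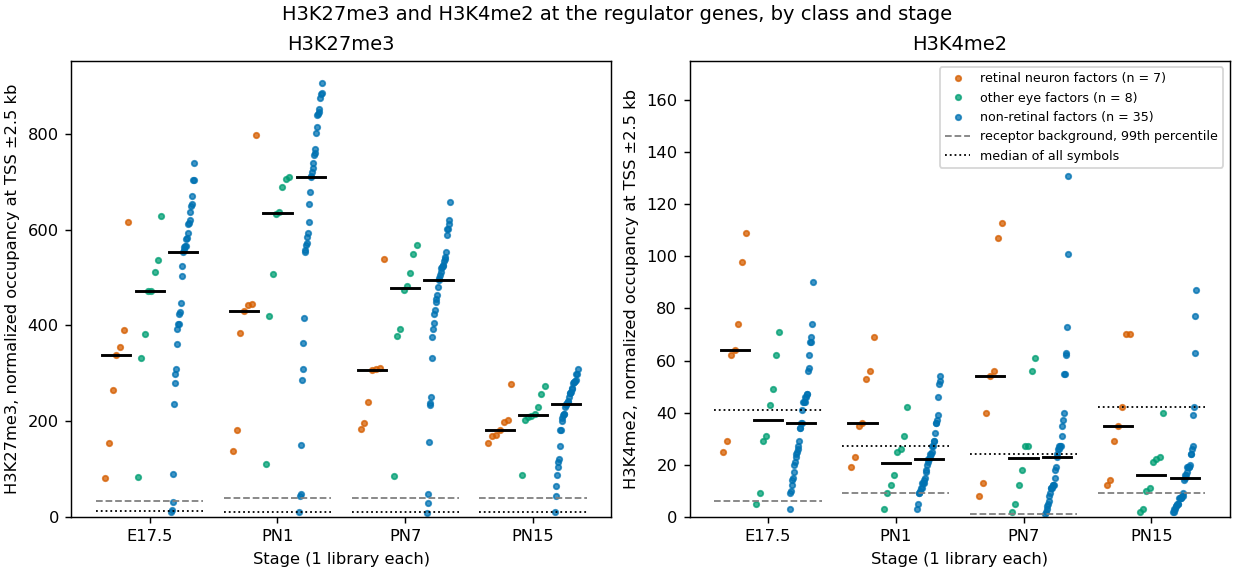
H3K27me3 (left) and H3K4me2 (right) of the 50 factors as normalized occupancy at the TSS, by stage and class; each point is 1 gene, black bars are class medians, dashed lines the receptor background and dotted lines the median of all symbols. H3K27me3 medians of the non-retinal factors lie between 236 and 711, and the retinal factors have the higher H3K4me2 median at each stage.

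The highest H3K27me3 sums belonged to factors of the dorsal neural tube, axial skeleton, forebrain and gut. Pax3, a factor of the neural crest and dorsal neural tube, had H3K27me3 values of 670, 885, 658 and 308, with H3K4me2 of 34, 24, 12 and 5. Pax1, which patterns the vertebral column, had 739, 908, 538 and 270 for H3K27me3 and 25, 15, 12 and 5 for H3K4me2. In both genes H3K27me3 peaked at PN1, and H3K4me2 ended below the background. Lhx5, a forebrain LIM factor, had H3K27me3 of 705, 853, 612 and 281 beside H3K4me2 of 14, 11, 6 and 4. Nkx2-3, needed in the spleen and gut wall, had H3K27me3 of 637, 886, 601 and 298 beside H3K4me2 of 44, 37, 15 and 8. Pax9, required for the teeth and thymus, had 649, 847, 621 and 298 for H3K27me3. All 5 genes ranked between 28 and 41 of 20045 symbols by H3K27me3 sum.

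The lowest H3K27me3 sums set apart a small group. Gata1, the master regulator of red blood cells, had H3K27me3 values of 9, 9, 8 and 10 and H3K4me2 values of 3, 3, 1 and 5 over the 4 stages. It was the only member with neither mark in any library, a state found at 22.9% of all symbols. Gata2 and Gata3, which act in blood stem cells and T cells, carried both marks at every stage, so the 3 blood factors did not share a state. Gata2 had H3K27me3 of 554, 875, 499 and 283 beside H3K4me2 of 57, 36, 63 and 42. Gata3 had H3K27me3 of 403, 654, 464 and 236 beside H3K4me2 of 74, 39, 55 and 63. Six6os1, named for the strand opposite Six6, had H3K27me3 of 3, 10, 5 and 9, beside H3K4me2 of 18, 8, 11 and 14. Nkx6-3, a stomach factor, had H3K27me3 of 31, 48, 48 and 43, close to the background limit throughout. Pax4, a factor of pancreatic beta cells, had H3K27me3 of 84, 110, 85 and 87 with H3K4me2 of 5, 3, 2 and 2, and so held H3K27me3 without H3K4me2 at every stage but PN7, where the H3K4me2 limit was 1.

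H3K4me2 at these genes was below the typical gene by PN15. Its median over the members was 36, 23, 24 and 16, against 41, 27, 24 and 42 for all symbols. It was above background at 49 members in the E17.5 library (72.6% of all symbols), 44 in the PN1 library (69.0%), 50 in the PN7 library (72.1%) and 33 in the PN15 library (68.3%), and in all 4 libraries at 30 (65.3%). The highest sums were those of Irx5, Six5, Six4, Lhx4 and Barhl2, of which 3 are retinal factors. Six4, a muscle and kidney factor, had H3K4me2 of 62, 46, 131 and 77 and H3K27me3 of 89, 151, 156 and 87. Six5, placed with the muscle and kidney factors although its loss also causes cataracts in mice, had H3K4me2 of 90, 51, 101 and 87 and H3K27me3 of 15, 43, 28 and 65. Both genes sat among the highest of the members for H3K4me2 and among the lowest for H3K27me3.

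Both marks together were found at 46 members in the E17.5 libraries (15.9% of all symbols), 44 in those of PN1 (13.8%), 48 in those of PN7 (14.8%) and 32 in those of PN15 (11.3%). They were present at all 4 stages at 29 members (8.42%). That group held 7 of 7 retinal factors, 5 of 8 other eye factors and 17 of 35 non-retinal factors. The non-retinal genes among them included Gata2 to Gata6, Gbx1, Lhx6, Msx3, Nkx1-2, Nkx2-9, Nkx3-2, Nkx6-1, Nkx6-2, Six2 and Six4.

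H3K27me3 without H3K4me2 was called at few members before PN15, under H3K4me2 limits of 6, 9, 1 and 9.02 that differed between libraries. At PN7, with its limit of 1, values such as 8 at Lhx3, 5 at Pax5 and 5 at Irx4 lay below the limit used at PN15. It was found at Pax4 alone at E17.5 (1.6% of all symbols), at 5 members at PN1 (Irx1, Nkx2-4, Nkx2-5, Nkx6-3 and Pax4, 2.49%), at 0 at PN7 (1.35%) and at 17 at PN15 (3.06%). The 17 comprised 0 of 7 retinal factors, 2 of 8 other eye factors (Irx4 and Pax4) and 15 of 35 non-retinal factors. The 15 were Barhl1, Lhx5, Lhx8, Nkx2-1, Nkx2-2, Nkx2-3, Nkx2-5, Nkx2-6, Nkx6-3, Pax1, Pax3, Pax5, Pax7, Pax8 and Pax9. Of the 17 genes, 15 had held both marks at E17.5 (1.61% of all symbols went from both marks to H3K27me3 alone), the exceptions being Pax4 and Nkx6-3. Among those 15, Lhx8, Nkx2-3, Pax9, Nkx2-2, Nkx2-6 and Pax8 had PN15 values of 7 to 9, still above the E17.5 limit of 6. All Pax members except Pax2 were among the 17, and no Gata, Msx or Gbx gene was, nor any of Six2, Six4 and Six5. Another 31 members held both marks at E17.5 and again at PN15 (9.38%). Some genes lay near the PN15 limit of 9.02, with Nkx2-3 and Pax9 at 8 and Lhx8 at 9 just below it, and Msx2 at 10 and Pax2 at 11 just above. The retinal factors Lhx3 at 12 (95% counting interval 6.20 to 21.0) and Gbx2 at 14 (7.65 to 23.5) were also above it by less than counting error, so their place outside the 17 is not firm.

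**Figure D2:**
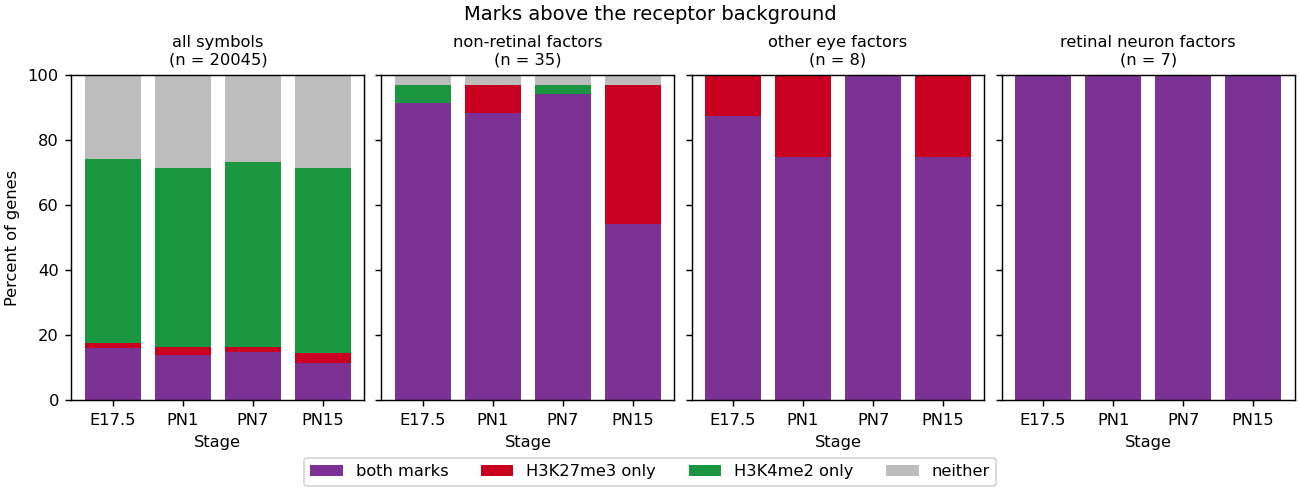
Percent of genes at each stage with both marks, H3K27me3 only, H3K4me2 only or neither above the receptor background, for all 20045 symbols and for each class of factors. By the limit of each library, both marks are present at all 7 retinal factors at every stage, while H3K27me3 without H3K4me2 is seen at 15 of 35 non-retinal factors at PN15.

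Comparison of the classes addressed whether factors used by retinal neurons differed from those of other organs, and gave a higher H3K4me2 median and a lower H3K27me3 median for the retinal factors at all 4 stages. The size of the H3K4me2 difference depended on where the other eye factors were put. The median H3K4me2 of the 7 retinal factors against the 35 non-retinal ones was 64 against 36, 36 against 22, 54 against 23 and 35 against 15. Medians of H3K27me3 were 339 against 554, 431 against 711, 306 against 495 and 182 against 236. The ratio of these H3K27me3 medians was 0.612, 0.606, 0.618 and 0.771. Of the retinal factors, 1 of 7, Gbx2, lay above the non-retinal H3K27me3 median in each library. The classes overlapped, since 5, 6, 7 and 5 of 35 non-retinal factors were above the retinal H3K4me2 median over the 4 stages. Of the retinal factors, 5, 6, 5 and 5 of 7 were above the non-retinal H3K4me2 median. Genes are not replicates and each stage had a single library, so the difference was not tested. Other eye factors had H3K4me2 medians of 37, 20.5, 22.5 and 16 and H3K27me3 medians of 472.5, 635, 478.5 and 212, near the non-retinal values. With these 8 genes counted as retinal, the H3K4me2 difference between the class medians went from 28, 14, 31 and 20 to 13, 4, 4 and 7, and that of H3K27me3 from -215, -280, -189 and -54 to -171, -267, -118 and -33. Counted as non-retinal, they left the H3K4me2 differences at 28, 14, 31 and 20.

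**Figure D3:**
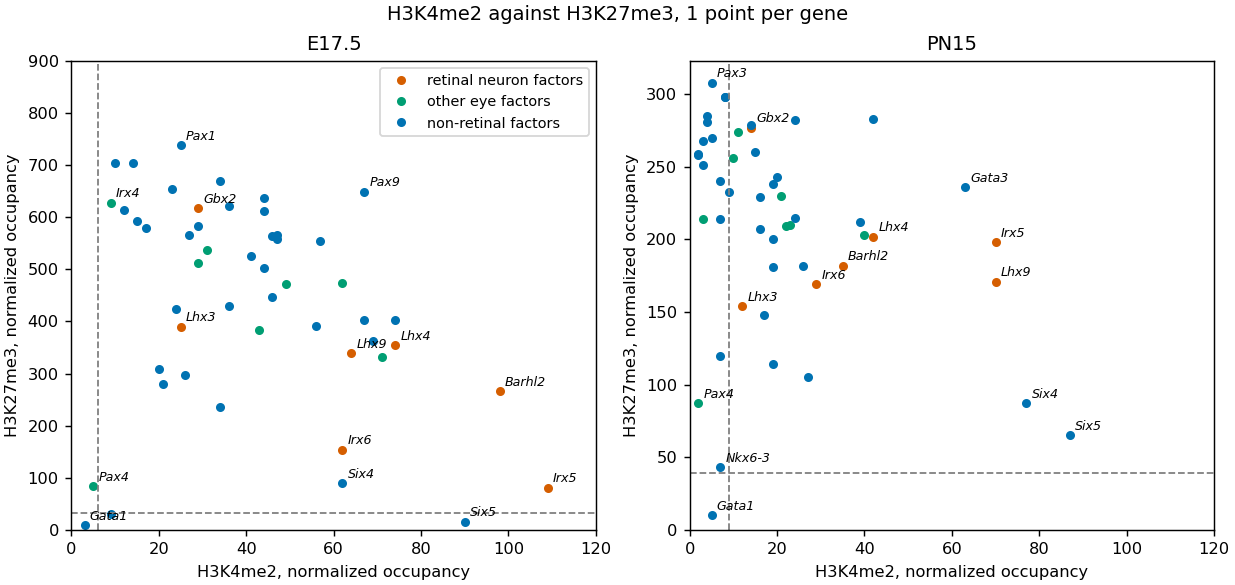
H3K4me2 against H3K27me3, both as normalized occupancy, for the 50 factors at E17.5 (left) and PN15 (right); each point is 1 gene, coloured by class, and dashed lines are the receptor background. Irx5, Six5 and Six4 combine high H3K4me2 with low H3K27me3 at E17.5, and at PN15 a column of genes lies left of the H3K4me2 limit of 9.02.

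Across the 51 genes the marks were weakly and negatively ranked against each other, with a Spearman coefficient of -0.23, -0.09, -0.24 and -0.34. Among the 47 members with H3K27me3 above background at all stages it was -0.40, -0.26, -0.42 and -0.43. These coefficients are across genes of the same 2 libraries and are given as a description.

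The 7 retinal factors were then examined one by one, since each is used by a known class of neuron. Intervals beside a ratio are exact 95% counting intervals, computed as though 1 unit of occupancy were 1 read, and they cover counting error only. Irx5 and Irx6 mark subsets of bipolar cells, the interneurons between photoreceptors and ganglion cells. Irx5 had H3K27me3 of 81, 182, 196 and 198, with H3K4me2 of 109, 56, 113 and 70. It was among the 3 members whose H3K27me3 was at least 2-fold higher at PN15 than at E17.5 (12.1% of all symbols), and its ratio of PN15 to E17.5 was 2.44 (1.88 to 3.21). Its value at PN1 was already near that of PN15, and PN1 was the stage at which most other members had their highest value. Irx6 had H3K27me3 of 154, 137, 183 and 169, a ratio of 1.10 (0.877 to 1.37), and H3K4me2 of 62, 36, 40 and 29. Neither gene had its highest H3K27me3 at PN1 or its lowest at PN15.

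Lhx3 and Lhx4 are paired LIM factors, of which Lhx3 marks bipolar cells and Lhx4 marks cone precursors and bipolar cells. Lhx4 had H3K4me2 of 74, 69, 107 and 42, and H3K27me3 of 354, 431, 240 and 202. Lhx3 had H3K4me2 of 25, 23, 8 and 12, and H3K27me3 of 390, 443, 312 and 154. With similar H3K27me3 at E17.5, Lhx3 had the lower H3K4me2 of the pair in all 4 libraries. The ratio of PN15 to E17.5 for H3K27me3 was 0.571 (0.478 to 0.680) for Lhx4 and 0.395 (0.326 to 0.477) for Lhx3, with intervals that only just failed to overlap.

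Barhl2, Lhx9 and Gbx2 act in amacrine cells, the inhibitory neurons of the inner retina, and Barhl2 also in ganglion cells. Barhl2 had H3K4me2 of 98, 53, 56 and 35, and H3K27me3 of 266, 385, 306 and 182. Gbx2 had H3K4me2 of 29, 19, 13 and 14, and H3K27me3 of 617, 799, 540 and 277, the level of the non-retinal factors. Lhx9 had H3K4me2 of 64, 35, 54 and 70, and H3K27me3 of 339, 444, 309 and 171. Lhx9 also had entries at another start site, with H3K4me2 of 99, 61, 59 and 30 and H3K27me3 of 222, 352, 420 and 211. The direction of its H3K4me2 therefore depended on the start site, and so did the stage of its highest H3K27me3, PN1 or PN7. The paralogue Barhl1, a factor of the cerebellum and inner ear, had H3K4me2 of 17, 18, 8 and 2 and H3K27me3 of 580, 739, 425 and 259. Barhl2 kept both marks at PN15 where Barhl1 was left with H3K27me3 only.

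**Figure D4:**
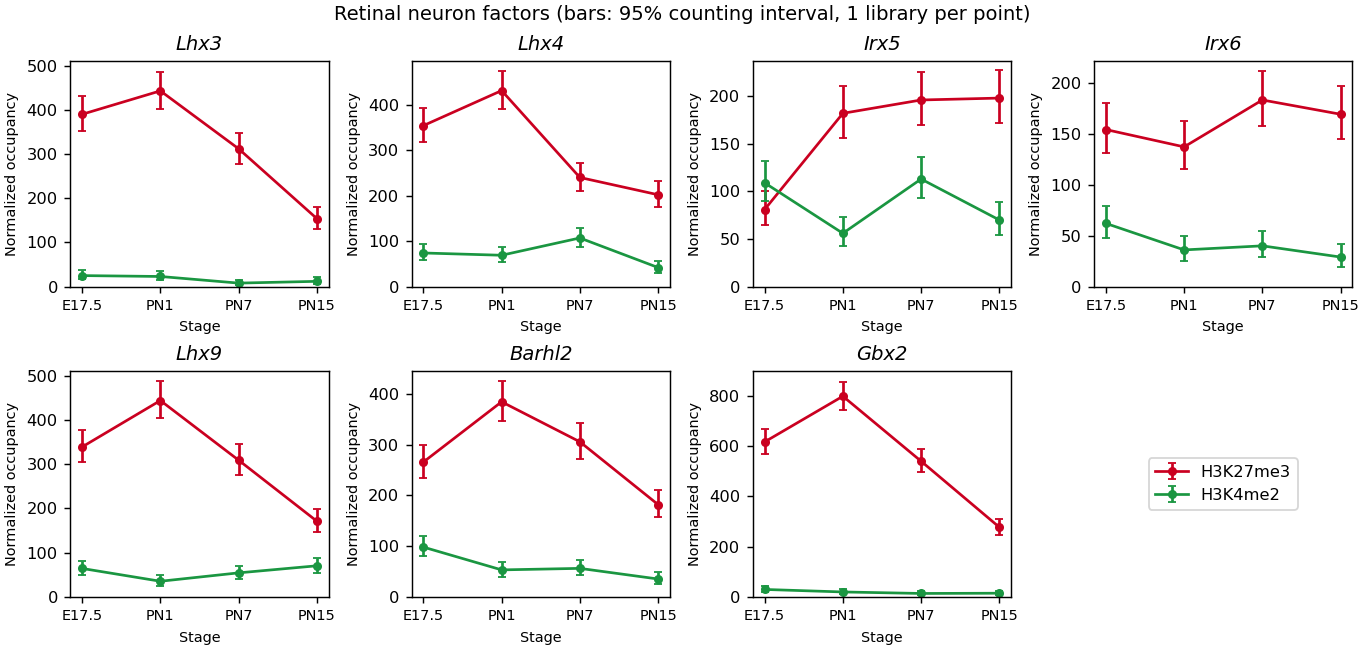
H3K27me3 (red) and H3K4me2 (green) of the 7 retinal neuron factors as normalized occupancy by stage; points are single libraries and bars exact 95% counting intervals. H3K27me3 of Irx5 goes from 81 to 198, that of Irx6 stays between 137 and 183, and the other 5 genes peak at PN1 and are lowest at PN15. Lhx9 is shown at the entry kept by the rule, and its other start site peaks at PN7.

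The time course of H3K27me3 was much alike across the members. It was highest at PN1 at 46 of 51 members (28.9% of all symbols), and the exceptions were Gata1, Irx5, Irx6, Six4 and Six5. Ties went to the earlier stage, and among the members only Nkx6-3 was tied, at 48 in both the PN1 and the PN7 library. Among genes with the mark in any library the peak at PN1 was found at 45 of 49 members against 53.3% of 4172 symbols, and the lowest value fell at PN15 at 44 of 49 members against 66.2%. The H3K27me3 libraries as a whole also peaked at PN1 and were lowest at PN15. Their highest value at any symbol was 809, 1125, 766 and 416, and their values summed to 854731, 980808, 790454 and 590366. The part of this library scale in the members' time course was not tested. Changes between stages were taken as log2 of the value plus 1, after the median change of all symbols was subtracted. The members' median of this H3K27me3 change was 0.39 from E17.5 to PN1, -0.32 from PN1 to PN7 and -0.99 from PN7 to PN15. Against symbols with the mark in place of all symbols, these steps were smaller, at 0.17, -0.18 and -0.34. From E17.5 to PN15 the median centred on all symbols was -1.06, with -0.81 for the retinal, -0.93 for the other eye and -1.12 for the non-retinal factors.

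H3K27me3 was at least 2-fold lower at PN15 than at E17.5 at 29 members (16.1% of all symbols), namely 2 of 7 retinal factors (Gbx2 and Lhx3), 3 of 8 other eye factors and 24 of 35 non-retinal ones. This was a wider feature of marked genes, since 3967 symbols with H3K27me3 at either stage had a median change of -0.71 and 38.0% of them were at least 2-fold lower. Measured against the median of those marked symbols, 0 of 49 members were at least 2-fold lower (10.2%) and the members' median was -0.35. Irx4, Nkx1-2, Nkx2-6 and Nkx2-5 were among the largest decreases. Irx4, a factor of the heart ventricle also described in the eye, had H3K27me3 of 628, 707, 483 and 214, beside H3K4me2 of 9, 12, 5 and 3. Nkx2-5, the cardiac homeobox factor, had H3K27me3 of 705, 770, 543 and 251, a ratio of 0.356 (0.307 to 0.412). At both genes the H3K4me2 value was 3 at PN15. The intervals of their H3K4me2 ratios, 0.058 to 1.34 for Irx4 and 0.053 to 1.17 for Nkx2-5, included no change. Nkx1-2, which acts in posterior neural tissue, and Nkx2-6, which acts in the pharynx and heart, had PN15 to E17.5 ratios for H3K27me3 of 0.345 (0.290 to 0.409) and 0.349 (0.297 to 0.408). The H3K27me3 counting intervals of Nkx2-5, Nkx1-2 and Nkx2-6 overlapped.

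Increases of H3K27me3 were few. A value at least 2-fold higher at PN15 than at E17.5 was found at 3 members (12.1% of all symbols), Irx5, Six5 and Six6os1. The Six5 ratio was 4.33 (2.44 to 8.18), and its value passed the background at PN1 and PN15 but not at E17.5 or PN7. Six6os1 stayed under the background at both stages and is not read as a change. Nkx6-3 had a ratio of 1.39 (0.854 to 2.28), Pax4 of 1.04 (0.759 to 1.41) and Six4 of 0.978 (0.719 to 1.33), intervals that include no change. Relative to the marked symbols, 3 members were at least 2-fold higher (19.1%), which were Irx5, Nkx6-3 and Six5.

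H3K4me2 was at least 2-fold lower at PN15 than at E17.5 at 33 members (12.8% of all symbols) and at least 2-fold higher at 0 (5.17%). The 33 were 4 of 7 retinal factors (Barhl2, Gbx2, Irx6 and Lhx3), 6 of 8 other eye factors and 23 of 35 non-retinal factors. This split depended on the limit. At 3-fold 18 members were lower, the retinal factor Barhl2, the other eye factors Msx1 and Pax2, and otherwise non-retinal factors. Pax4, 1 of the 6 other eye factors, was under the H3K4me2 background at both stages and is not read as a change. At Irx4 and Nkx2-5, also among the 33, the counting interval of the H3K4me2 ratio included no change. The members' median change was -1.13 after the shift of 0.13 in all symbols was subtracted. By interval it was -0.27 from E17.5 to PN1, 0.55 from PN1 to PN7 and -1.58 from PN7 to PN15, and the median shift of all symbols over these steps was -0.42, -0.50 and 1.0. Without that subtraction the medians of the members were -0.68, 0.05 and -0.58, and the PN7 library was the one with many symbols at 0. The span from E17.5 to PN15 does not involve that library. The summed H3K4me2 of the 6 rod markers went from 96 to 587 over the same span, and its part in the members' result was not tested.

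Pax5, Pax9, Lhx8, Barhl1, Nkx2-2 and Pax7, the last 3 tied at a centred change of -2.72, had the largest H3K4me2 decreases with a pseudocount of 1. All 6 are non-retinal factors with H3K27me3 in every library. The order depended on the pseudocount. With 5, Pax9 was at -2.59, Lhx8 at -2.48 and Pax5 at -2.31, while Barhl1 at -1.77 lay behind Pax3 at -2.08 and Nkx2-3 at -2.04. Pax5 had H3K4me2 of 27, 14, 5 and 2, a ratio of PN15 to E17.5 of 0.0741 (0.00854 to 0.295), and H3K27me3 of 566, 720, 520 and 258. Pax9 had H3K4me2 of 67, 25, 27 and 8, a ratio of 0.119 (0.0495 to 0.249). Both Pax genes began with H3K4me2 well above the limit of 6 and ended below that of PN15. Lhx8, a factor of cholinergic neurons of the forebrain, had H3K4me2 of 67, 36, 35 and 9 and H3K27me3 of 403, 572, 480 and 233. Nkx2-2, a factor of the ventral spinal cord and pancreas, had H3K4me2 of 47, 21, 23 and 7 and H3K27me3 of 566, 761, 534 and 240. Barhl1 had a ratio of 0.118 (0.0132 to 0.496), which is wide because its last value was 2.

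A higher H3K4me2 value at PN15 than at E17.5 was seen at 5 members (56.4% of all symbols), among them Gata1, Gbx1, Lhx9 and Six4. None of these 4 differences exceeded counting error. The ratio was 1.24 (0.877 to 1.76) for Six4, 1.09 (0.768 to 1.56) for Lhx9 and 1.08 (0.598 to 1.97) for Gbx1, and the values of Gata1 were under the background. Gbx1, a spinal cord factor, had H3K4me2 of 24, 22, 37 and 26 with H3K27me3 of 423, 553, 392 and 182.

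**Figure D5:**
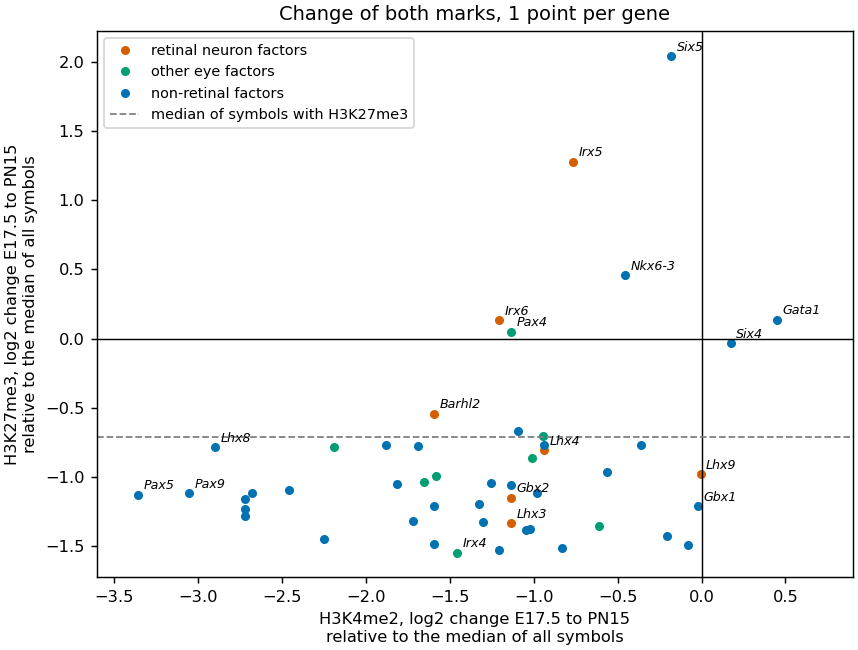
Log2 change from E17.5 to PN15 of H3K4me2 (horizontal) and H3K27me3 (vertical) for the 50 factors, each relative to the median of all symbols; the dashed line is the median of symbols with H3K27me3, at -0.71. Most genes lie at lower left, Six5 and Irx5 stand above with H3K27me3 changes of 2.04 and 1.28, and Pax5 lies furthest left at -3.36. With a pseudocount of 5, Pax5 was at -2.31 and Pax9 further left at -2.59.

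By family, the Pax genes combined the highest H3K27me3 with the lowest H3K4me2 at PN15. The 8 Pax members had a median H3K27me3 of 607.5 at E17.5 and 269 at PN15, and a median H3K4me2 of 26 and 5. The 13 Nkx members, factors of the ventral neural tube, heart and gut, had H3K27me3 medians of 525 and 214 and H3K4me2 medians of 36 and 15. Of the sine oculis homologues, Six2, the factor of kidney progenitors, had H3K27me3 of 558, 713, 506 and 243, far above its relatives Six4 and Six5. The 6 Irx genes had a narrower H3K27me3 range at PN15, 169 to 214, than at E17.5, 81 to 628. Ranges narrowed in other families too, as in the Nkx genes from 31 to 705 at E17.5 to 43 to 298 at PN15. The highest H3K27me3 value of any symbol went from 809 to 416 over that span. The 6 Gata genes spanned an H3K27me3 of 9 to 583 at E17.5, later narrowed to 10 to 283 by PN15, with Gata1 at the bottom of both ranges.

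Of the 5 relatives that the name rule left out, Pax6 and Lhx2 had their highest H3K27me3 at PN15, Six3 and Six6 had none above background, and Lhx1 had the time course of most members. Pax6, a factor of retinal progenitors and of amacrine and ganglion cells, had H3K27me3 of 4, 15, 113 and 178, beside H3K4me2 of 137, 97, 114 and 44. Lhx2, required for the optic vesicle, had H3K27me3 of 28, 62, 85 and 117, beside H3K4me2 of 104, 64, 88 and 50. In both genes H3K27me3 was lowest at E17.5 and highest at PN15, the direction also seen at Irx5. Six3 and Six6, factors of the early eye field, had H3K27me3 values of 3, 10, 16 and 22 and of 3, 7, 11 and 24. Lhx1, a factor of horizontal cells, had H3K27me3 of 564, 797, 474 and 304, beside H3K4me2 of 71, 38, 32 and 19, within the range of the non-retinal members in every library.

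Some members are neighbours in the genome, although no windows overlapped among the 50 factors, all of which had a GENCODE locus. On mm9 the start sites of Nkx2-1, a thyroid, lung and forebrain factor, and Nkx2-9 are 76376 bp apart on chromosome 12. Their H3K27me3 was 593, 802, 512 and 285 for Nkx2-1, beside 621, 757, 525 and 238 for Nkx2-9. H3K4me2 at PN15 was 4 for Nkx2-1, under the background, and 19 for Nkx2-9, above it.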

How the data were processed

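H3K4me2 and H3K27me3 ChIP-Seq of mouse retina was used at 4 stages. The authors mapped reads with Bowtie 0.12.4 to mm9, kept reads with a single position and counted fragment midpoints (190 bp assumed) in a window of 2.5 kb on each side of a RefSeq TSS. What they deposited is a score, the normalized occupancy, scaled to the mapped reads of the library and held as whole numbers in 25152 entries and 8 columns. Read depth is not given in the sources used here. The values of a library summed to 698257 to 1200594 for H3K4me2 and 590366 to 980808 for H3K27me3. Every whole number up to 100 occurred in all 8 libraries, so 1 unit was at least 1 read, and exact 95% Poisson intervals of the values are no narrower than the true ones.

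Members and lists were chosen with earlier results of these data known, and classes follow textbook roles. Nkx1-1 was not analysed here. Some items that these rules select are not reported here. The background came from 1399 olfactory and vomeronasal receptor entries. With 1 library a group no test was possible, and a change was called at 2-fold on log2(value + 1), centred on all symbols. The calls were checked on simulated data for H3K27me3 only, at high values and with changes larger than the limit. Calls near the 2-fold limit, at low values or for H3K4me2 were not checked in this way. Named genes were the retinal factors, the 5 highest and lowest H3K27me3 sums, the 5 highest H3K4me2 sums, the 5 largest changes each way, genes with no mark, and the relatives left out. Other genes were named after their values were seen. Alternatives were another pseudocount, fold limit, centring, background, entry per symbol and class division. Loci came from GENCODE on NCBIM37. Python 3.11.15, numpy 2.4.6, pandas 2.3.3, scipy 1.17.1 and matplotlib 3.10.9 were used.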

Additional observations from a re-analysis of the deposited data

How the results depend on the processing

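Of 132 alternative values, 107 stayed within 1.5 times the count or class difference, or within the 95% interval of the median over members. With the other eye factors counted as retinal, the retinal minus non-retinal difference in H3K4me2 was 13, 4, 4 and 7 over the 4 stages, and that in H3K27me3 was -118 at PN7 and -33 at PN15. Averaging the entries of a symbol raised the H3K4me2 difference at PN1 from 14 to 30.3, and the difference in H3K27me3 change from E17.5 to PN15 from 0.31 to 0.59. No class difference changed sign. A 95th percentile background, chosen after the data were seen, left 2 members with H3K27me3 and without H3K4me2 at PN1. The share of all symbols in that state at the 95th percentile was not computed. A 3-fold limit left 18 members with lower H3K4me2, 0 with lower H3K27me3 and 1 with higher H3K27me3 from E17.5 to PN15. The shares of all symbols at the 3-fold limit were not computed, so these counts have no general rate beside them. Centring on symbols with the mark left 0 with 2-fold lower H3K27me3, and gave H3K27me3 medians of -0.35 from E17.5 to PN15, 0.17 from E17.5 to PN1, -0.18 from PN1 to PN7 and -0.34 from PN7 to PN15. With no centring the H3K4me2 medians were -1.0 from E17.5 to PN15, -0.68, 0.0525 and -0.58 over the 3 steps, and that of H3K27me3 from PN1 to PN7 was -0.49. A pseudocount of 5 gave H3K4me2 medians of -0.96 from E17.5 to PN15 and -1.12 from PN7 to PN15, and -0.36 for H3K27me3 from PN1 to PN7. Centring and limits follow from their construction, and the cause of the other shifts was not tested. Among 224 alternative values for named genes, 198 stayed within the counting interval of the change, 26 moved beyond it, and no change of at least 2-fold turned its sign. Smaller changes turned sign 5 times. Centring on symbols with the mark took H3K27me3 from -0.54 to 0.17 at Barhl2 and from -0.03 to 0.68 at Six4, and no centring turned 3 H3K4me2 changes, the largest of size 0.0808. Lhx9, averaged over its entries, had changes of -1.13 for H3K4me2 and -0.40 for H3K27me3.

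No paired analysis was possible because each mark and stage had 1 library, and no replicate exists to leave out. Differences between stages therefore carry an unknown error between pools of retinas, and read depth is bounded but not known. The H3K4me2 limit of 1 at PN7 makes its calls at that stage more lenient than at the others.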
